A study of Mus musculus with 6 samples.

Results

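Genes of tumour necrosis factor (TNF), lymphotoxin and TWEAK signalling were followed in the fibrotic liver of mice with and without a stellate cell deletion of Prmt1. The members were 10 genes picked by symbol from a table of 21983 genes: the ligands Tnf, Lta, Ltb and Tnfsf12, the receptors Tnfrsf1a, Tnfrsf1b, Ltbr and Tnfrsf12a, and the feedback inhibitors Tnfaip3 and Nfkbia. All 10 were in the table, and 8 had enough counts to be tested. Tnf and Lta did not pass the filter on low counts and are given as counts. The list was drawn up with the genotype differences of these same livers known, so the differences of the members are a description and stand as no independent evidence.

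Whole liver RNA was sequenced from 6 C57BL/6 mice, each given thioacetamide (TAA), a hepatotoxin with which liver scarring is induced, in the drinking water (400 mg/L) over 16 weeks. The knockout group was 3 mice (49, 82 and 88) of the genotype Lrat-Cre; Prmt1f/f, in which Cre recombinase under the control of Lrat, a gene of the retinoid-storing stellate cells, acts on a floxed allele of Prmt1, which encodes the main enzyme of asymmetric arginine dimethylation. The control group was 3 mice (42, 83 and 90) of the genotype Prmt1f/f, with the floxed allele alone. The labels give an age of 10 weeks without saying when in the treatment it was taken, and no animal went without TAA. Whole liver also holds many cells in which this Cre is not active, and in such bulk RNA fewer cells of a type and less RNA per cell cannot be told apart.

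TNF is made mainly by activated macrophages and lymphocytes. It binds TNFR1 (Tnfrsf1a), found on most cells, and TNFR2 (Tnfrsf1b), found mainly on immune and endothelial cells. Lymphotoxin alpha (Lta) either forms a secreted homotrimer that binds the same receptors or joins lymphotoxin beta (Ltb) on the surface of lymphocytes, and that heterotrimer signals through the lymphotoxin beta receptor (Ltbr) on stromal, epithelial and myeloid cells. TWEAK (Tnfsf12) binds Fn14 (Tnfrsf12a), a small receptor that is induced in injured liver, where the pair is known for its part in the ductular reaction, the outgrowth of bile duct-like cells. The receptors lead to NF-kB: TNFR1 mainly to the canonical branch, in which IkB-alpha (Nfkbia) is degraded, and Ltbr and Fn14 also to the non-canonical branch of Nfkb2 and Relb. Nfkbia and Tnfaip3 (A20, a ubiquitin-editing enzyme) are themselves switched on by NF-kB and damp the signal.

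The 3 ligand genes Ltb, Tnf and Lta lie side by side on chromosome 17 (GENCODE M21 annotation of GRCm38). Ltb spans 35194439 to 35196320 on the plus strand, Tnf 35199381 to 35202007 and Lta 35203165 to 35205351 on the minus strand, so that all 3 fit into 10913 bases. The receptor genes Ltbr (125306571 to 125313885, minus strand) and Tnfrsf1a (125349362 to 125362484, plus strand) are neighbours on chromosome 6, with 35476 bases between them. Tnfrsf12a is also on chromosome 17 (23675445 to 23677468, minus strand), apart from the ligand cluster. Tnfrsf1b is on chromosome 4 (145213463 to 145246870), Tnfaip3 on chromosome 10 (19000910 to 19015657) and Nfkbia on chromosome 12 (55489410 to 55492647), all on the minus strand. Tnfsf12 is on the minus strand of chromosome 11 (69686250 to 69695849), and 48.3% of its exon bases are shared with the read-through gene Tnfsfm13, so its counts are uncertain.

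Promoter sequences of 9 members were found in the RefSeq table (GRCm38.p6). Shown here are the 250 bases before the RefSeq start of Ltb and of Tnfrsf12a, the 2 members whose genotypes did not overlap. The same is shown for Tnfaip3 and Nfkbia, the 2 feedback genes of NF-kB whose genotypes overlapped. The RefSeq starts of Ltb, Tnfrsf12a and Tnfaip3 lie inside their GENCODE spans given above. Their windows therefore run into the annotated gene, that of Tnfaip3 almost wholly. Each is written 5′ to 3′ on the strand of its gene, and capitals mark matches to the NF-kB (kappa B) consensus motif on either strand.
Ltb, chr17:35194257-35194506, plus strand: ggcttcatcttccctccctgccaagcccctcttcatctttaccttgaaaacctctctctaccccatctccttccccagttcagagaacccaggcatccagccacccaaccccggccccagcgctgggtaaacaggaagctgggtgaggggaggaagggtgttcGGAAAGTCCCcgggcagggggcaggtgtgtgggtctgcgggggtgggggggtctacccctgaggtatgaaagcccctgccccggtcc
Tnfrsf12a, chr17:23677450-23677699, minus strand: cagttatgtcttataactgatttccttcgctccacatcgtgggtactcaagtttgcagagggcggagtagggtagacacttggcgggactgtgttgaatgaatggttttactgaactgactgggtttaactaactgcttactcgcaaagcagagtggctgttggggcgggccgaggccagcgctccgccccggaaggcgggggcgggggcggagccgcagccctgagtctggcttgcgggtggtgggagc
Tnfaip3, chr10:19015411-19015660, minus strand: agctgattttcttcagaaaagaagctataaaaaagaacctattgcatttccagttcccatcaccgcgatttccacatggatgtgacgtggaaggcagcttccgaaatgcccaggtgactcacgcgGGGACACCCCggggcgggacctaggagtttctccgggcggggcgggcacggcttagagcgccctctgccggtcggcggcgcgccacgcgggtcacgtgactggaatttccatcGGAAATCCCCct
Nfkbia, chr12:55492648-55492897, minus strand: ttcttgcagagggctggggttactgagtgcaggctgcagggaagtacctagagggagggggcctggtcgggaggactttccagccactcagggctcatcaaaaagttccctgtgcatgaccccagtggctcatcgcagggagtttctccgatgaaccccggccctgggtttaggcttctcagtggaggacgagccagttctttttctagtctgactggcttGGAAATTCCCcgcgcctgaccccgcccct

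The motif was present in the promoters of 3 of the 9 member genes, with 1 match in Ltb, 1 in Nfkbia and 2 in Tnfaip3. The matches begin 87 bases before the RefSeq start of Ltb, 29 bases before that of Nfkbia, and 125 and 12 bases before that of Tnfaip3. Both matches of Tnfaip3 lie inside its GENCODE span, while those of Ltb and Nfkbia lie outside theirs. A match was held by 3.9% of all 32851 promoters listed, as did 4.46% of genes in at least 1 promoter. RefSeq lists another start of Tnfaip3 downstream, whose promoter held none. These letters do not occur in the shown window of Tnfrsf12a, nor in those of Tnf, Lta, Ltbr, Tnfrsf1a and Tnfrsf1b. Letter matches are a description of the sequence only. Ltb and the 2 feedback genes hold a match, and whether matches have a part in the genotype differences was not tested.

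Total counts were between 13303884 and 16462278 per mouse. Levels are given in CPM (counts scaled to library size, with TMM factors), and fold changes as log2 of knockout over control with standard error. Prmt1 itself had 38.9, 44.4 and 49.8 CPM in control mice 42, 83 and 90 and 35.8, 24.7 and 25.8 CPM in knockout mice 49, 82 and 88 (log2 fold change -0.62, SE 0.20, adjusted p = 0.347 in edgeR's quasi-likelihood test). Its genotypes did not overlap, and knockout mouse 49 lay nearest to the controls. Over all tested genes, the log2 levels of mouse 49 differed least from those of control mouse 42 (root mean square difference 0.401), and less than from knockout mice 82 (0.488) and 88 (0.546). Control mouse 42 was in turn nearer to knockout mice 49 and 82 (0.479) than to control mice 83 (0.489) and 90 (0.654). Neither the Prmt1 level of whole liver nor these distances settle the genotype label of mouse 49, which may need checking. The same holds for control mouse 42. Every knockout mean here includes mouse 49, and every control mean includes mouse 42. Members and genes named by smallest p whose fold change moves by over 1.5 times without mouse 49 are also given without that mouse.

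The clearest contrast among the members was between 2 genes that were low in knockout livers, Ltb and Tnfrsf12a, and the receptors Tnfrsf1a, Tnfrsf1b and Ltbr, whose genotypes overlapped with fold changes near 0. In Ltb and Tnfrsf12a every knockout mouse lay under every control mouse, which was so for 7.94% of all 13153 genes tested. At an adjusted p of 0.05, edgeR's quasi-likelihood test called 0 of the 8 tested members and 0% of all genes in either direction. At an unadjusted p under 0.05, 2 members (Ltb and Tnfrsf12a) were lower and 0 were higher, against 5.95% and 5.06% of all genes. DESeq2 called 1 member, Ltb, where it called 0.921% of all genes as lower and 0.892% as higher. Limma-voom called 0 members and 0% of all genes. Of the 8 fold changes 6 were negative, with a median of -0.26, while 52.7% of all genes were negative and 47.3% positive with a median of -0.02. Because the list was chosen with this contrast in view, nothing is read from these shares.

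**Figure D1:**
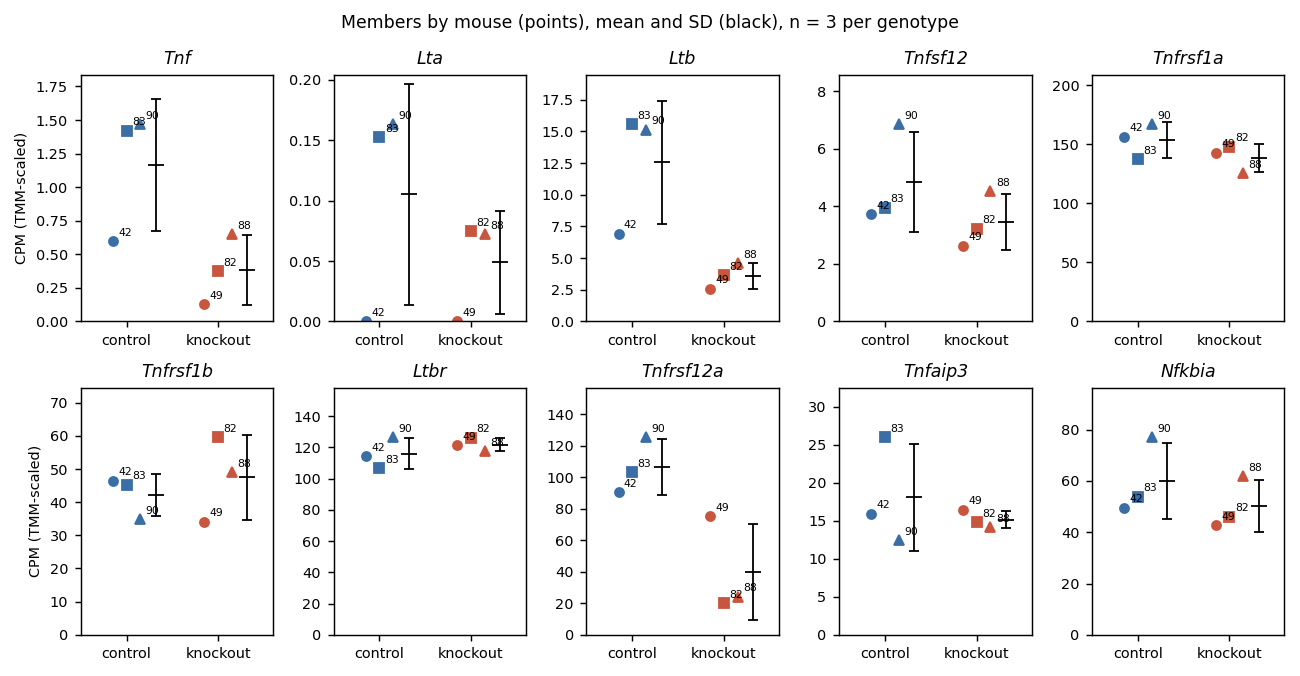
Level of each of the 10 members in every mouse, in TMM-scaled CPM from 0, with control mice in blue and knockout mice in red, numbered by mouse, and the mean and SD of 3 mice in black. Ltb and Tnfrsf12a have no overlap between genotypes, with knockout mouse 49 at 75.1 CPM of Tnfrsf12a nearest to the controls.

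Among the ligands, Ltb had the largest difference. It was counted 104, 307 and 185 times in control mice 42, 83 and 90, and 40, 49 and 64 times in knockout mice 49, 82 and 88. In CPM these are 6.93, 15.6 and 15.1 against 2.57, 3.67 and 4.61. Mice 83 and 90 were high, control mouse 42 lay between them and the knockouts, and the genotypes did not overlap. The control mean was 12.5 ± 4.87 CPM and the knockout mean 3.62 ± 1.02 CPM (SD, n = 3), 28.8% of the control level. The log2 fold change was -1.80 (SE 0.37), with an adjusted p of 0.227 in edgeR, 0.310 in limma-voom and 0.00227 in DESeq2. With each mouse left out in turn it stayed between -2.08 and -1.59.

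Tnf, the founding cytokine of the family, was close to the limit of detection in whole liver. It had 9, 28 and 18 counts in control mice 42, 83 and 90 and 2, 5 and 9 counts in knockout mice 49, 82 and 88. In CPM these were 0.600, 1.42 and 1.47 against 0.129, 0.375 and 0.648, so knockout mouse 88 lay above control mouse 42 and the genotypes overlapped. The 55 control and 16 knockout counts gave a ratio of control over knockout of 3.13 at equal depth, with a 95% exact interval from 1.77 to 5.86 that covers counting error only and not the spread between mice. Without knockout mouse 88 that ratio was 4.84, the largest value with 1 mouse left out. It was smaller than 3.13 without knockout mouse 49, control mouse 83 or control mouse 90. DESeq2, which tested Tnf, gave a log2 fold change of -1.61 with an adjusted p of 0.380.

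Lta had 0, 3 and 2 counts in control mice 42, 83 and 90 and 0, 1 and 1 in knockout mice 49, 82 and 88. The ratio of 5 control to 2 knockout counts was 2.28 at equal depth, with an exact interval from 0.373 to 23.9, and no difference was detectable at this depth. Mouse 42 and mouse 49, 1 of each genotype, had no count.

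Tnfsf12, the gene of TWEAK, had 3.73, 3.96 and 6.87 CPM in control mice 42, 83 and 90 and 2.64, 3.22 and 4.54 CPM in knockout mice 49, 82 and 88. Control mouse 90 stood above the rest, and knockout mouse 88 lay above the other two controls. The means of 4.85 ± 1.75 and 3.47 ± 0.973 CPM (SD, n = 3) gave a log2 fold change of -0.48 (SE 0.36; adjusted p = 0.629 in edgeR). Without control mouse 90 it was -0.20, without knockout mouse 49 -0.31 and without knockout mouse 88 -0.74.

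Among the receptors, Tnfrsf12a, which encodes the TWEAK receptor Fn14, differed most. It had 90.4, 103 and 125 CPM in control mice 42, 83 and 90, and 75.1, 20.0 and 24.3 CPM in knockout mice 49, 82 and 88. Mice 82 and 88 were far below all others, while mouse 49 lay close under control mouse 42. The means were 106 ± 17.7 and 39.8 ± 30.7 CPM (SD, n = 3), 37.4% of the control level, with a log2 fold change of -1.42 (SE 0.46). Its adjusted p was 0.347 in edgeR, 0.330 in limma-voom and 0.0648 in DESeq2.

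Mouse 49 decided whether Tnfrsf12a passed the test. Without it the log2 fold change was -2.26 (SE 0.24) and the adjusted p 0.0309 in edgeR, in a fit that called 13 genes of the whole table, 4 lower and 9 higher. With control mouse 42 left out as well, so that 2 mice of each genotype remained, the log2 fold change was -2.37 and the adjusted p 0.0754 in edgeR, which did not pass. Mouse 49 also had the highest Prmt1 level of the knockout mice, as given above, and whether that has a part in its Tnfrsf12a level was not tested.

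The genotypes of the TNF receptors and the lymphotoxin beta receptor lay close together and overlapped. Tnfrsf1a, the broadly expressed death domain receptor TNFR1, had 157, 138 and 167 CPM in control mice 42, 83 and 90 and 143, 148 and 125 CPM in knockout mice 49, 82 and 88 (log2 fold change -0.15, SE 0.18; adjusted p = 0.762 in edgeR). Ltbr, the receptor of the ligand made with Ltb, had 115, 107 and 127 CPM against 121, 126 and 118 CPM in the same order (0.07, SE 0.17; adjusted p = 0.890 in edgeR). Tnfrsf1b, the gene of TNFR2, had 46.4, 45.2 and 34.9 CPM against 34.1, 59.6 and 49.04 CPM (0.17, SE 0.23; adjusted p = 0.790 in edgeR). Leaving out knockout mouse 49 gave 0.37 for Tnfrsf1b, and leaving out control mouse 90 gave 0.0087. For Tnfrsf1a the value was -0.29 with library totals and -0.22 without control mouse 83. Ltbr had a sign that was negative (-0.071) with library totals as the only scaling, and that of Tnfrsf1b was negative with library totals (-0.0064) and without knockout mouse 82 (-0.043), so no direction is given for either.

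The feedback inhibitors of NF-kB had small negative fold changes whose size depended on single mice. Nfkbia, which holds NF-kB in the cytoplasm, had 49.5, 53.9 and 77.1 CPM in control mice 42, 83 and 90 and 42.9, 46.1 and 61.8 CPM in knockout mice 49, 82 and 88 (log2 fold change -0.26, SE 0.23; adjusted p = 0.678 in edgeR). That value was -0.086 without control mouse 90, -0.15 without knockout mouse 49 and -0.46 without knockout mouse 88. Tnfaip3, which removes activating ubiquitin chains from TNF receptor complexes, had 15.9, 26.0 and 12.4 CPM against 16.5, 14.8 and 14.2 CPM (-0.26, SE 0.28; adjusted p = 0.729 in edgeR). Its control mean rested on mouse 83, and without that mouse the log2 fold change was 0.096, against -0.52 without control mouse 90. The genotypes overlapped in both genes.

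**Figure D2:**
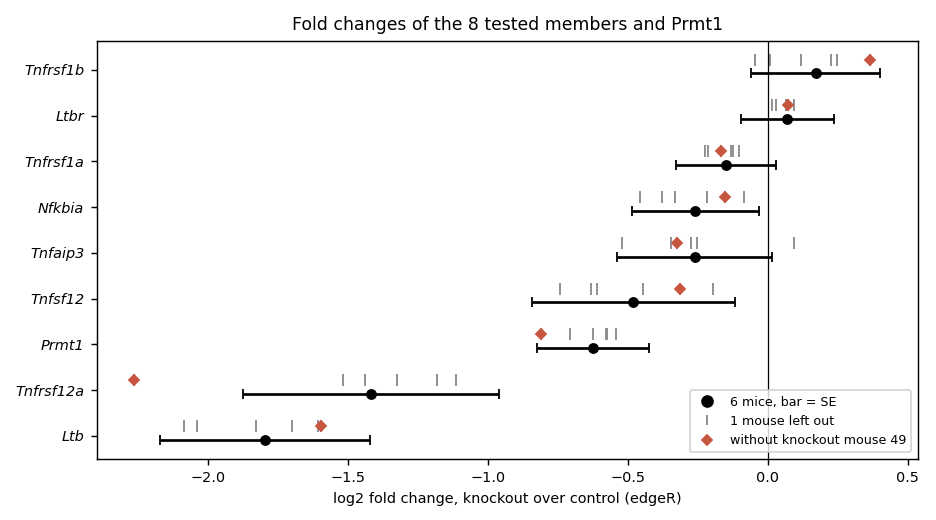
Log2 fold change of knockout over control for the 8 tested members and Prmt1 (black, bar = SE, edgeR, 6 mice), with the values after leaving out each mouse (grey) and knockout mouse 49 (red). Tnfrsf12a moves from -1.42 to -2.26 without mouse 49, while Ltb stays between -2.08 and -1.59.

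The members did not share 1 pattern over the mice. Control mouse 90 had the highest level in 7 of the 10 members, control mouse 83 in 2 (Ltb and Tnfaip3) and knockout mouse 82 in 1 (Tnfrsf1b). Knockout mouse 49 was the lowest in 5 members (Tnf, Ltb, Tnfsf12, Tnfrsf1b and Nfkbia) and shared the lowest place in Lta with control mouse 42, both at 0. Each of the other 4 mice was the lowest in 1 member. Mouse 49, the lowest of all in Ltb, was at the same time the highest knockout in Tnfrsf12a.

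Levels were compared between genes as CPM per kb of annotated exon. In control livers the receptors led the ligands. Tnfrsf1a had 59.4, Tnfrsf12a 55.1 and Ltbr 49.3 CPM per kb, and the spread over mice of these 3 overlapped (53.1 to 64.6, 46.8 to 64.9 and 45.4 to 53.8). Nfkbia followed at 37.4 and Tnfrsf1b at 11.1. Ltb had 8.28 CPM per kb and overlapped Tnfrsf1b over mice (4.57 to 10.3 against 9.14 to 12.2). Tnfsf12 had 3.20 and Tnfaip3 2.51, also overlapping, and Tnf (0.710) and Lta (0.0761) came last.

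In knockout livers the order of the means changed for 1 gene. Tnfrsf12a, at 20.6 CPM per kb, stood under both Ltbr (51.7) and Nfkbia (31.2), although its range over mice overlapped that of Nfkbia (10.4 to 38.9 and 26.6 to 38.4). Ltb kept its place in the order, but at 2.39 it was close to Tnfsf12 (2.29) and Tnfaip3 (2.10) and no longer overlapped Tnfrsf1b (8.93 to 15.6). Tnfrsf1a (53.6) and Ltbr stood first.

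**Figure D3:**
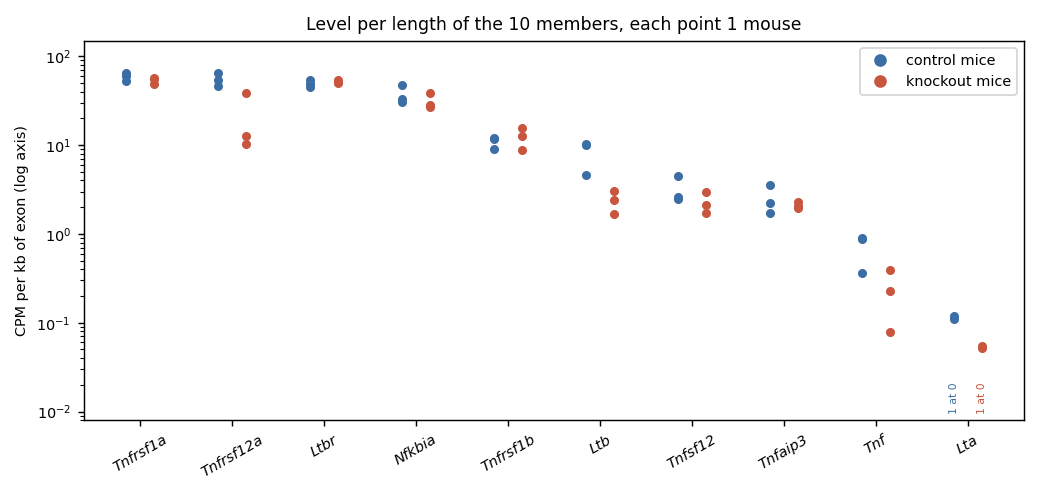
Level per length of the 10 members on a log axis, in CPM per kb of exon, with each point 1 mouse (control in blue, knockout in red), ordered by the control mean. The receptor genes other than Tnfrsf1b lie between 45.4 and 64.9 in control mice, Ltb between 4.57 and 10.3, and Lta is at 0 in 1 mouse of each genotype.

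The other genes of the pathway were described from 7 lists with 113 genes, of which 84 were tested. Of these, 0 passed an adjusted p of 0.05 in edgeR and in limma-voom, and DESeq2 called 1, Ccl2. At an unadjusted p under 0.05 edgeR had 13 lower and 1 higher, against 5.95% and 5.06% of all genes. Fold changes were negative in 61 and positive in 23, with a median of -0.29 against -0.02 over all genes tested. Genotypes did not overlap in 18 genes that were lower and 5 that were higher in knockout livers, against 7.94% and 8.96% of all genes. The lists were chosen with earlier results of these data known, so nothing is read from such shares, here or list by list below. Named from each list are the 2 genes with the smallest p, apart from the lymphoid list, where 1 is given.

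Of 14 other ligands of the family, 4 were tested, all with negative fold changes and overlapping genotypes (median -0.64). Tnfsf14 (LIGHT, which also binds Ltbr) had 0.533, 1.93 and 1.63 CPM in control mice 42, 83 and 90 and 1.35, 0.375 and 0.648 CPM in knockout mice 49, 82 and 88 (log2 fold change -0.77, SE 0.64). Tnfsf13b, the B cell survival factor BAFF, had 1.07, 4.11 and 4.09 against 0.965, 2.02 and 2.52 CPM (-0.75, SE 0.57). Without mouse 49 these fold changes were -1.40 for Tnfsf14 and -0.44 for Tnfsf13b. Without control mouse 83 they were -0.41 and -0.48, Tnfsf14 was at -0.47 without knockout mouse 82, and Tnfsf13b was at -1.16 without control mouse 42, which was low for both ligands. Tnfsf4 and Cd70, ligands of T cell receptors of the family, had no count in any mouse. The median of this list was -0.98 without mouse 42, -0.41 without mouse 90 and -0.31 without mouse 49.

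Of 23 other receptors, 17 were tested, 14 with negative fold changes (median -0.49). In 2 the genotypes did not overlap, both lower in knockout livers, against 7.94% of all genes, and nothing is read from that count. Cd40, the costimulatory receptor of B cells and antigen-presenting cells, had 2.13, 3.10 and 4.50 against 0.644, 1.80 and 1.51 CPM (log2 fold change -1.30, SE 0.48; adjusted p = 0.386 in edgeR). Tnfrsf11b (osteoprotegerin, a soluble decoy receptor) had 6.53, 2.03 and 1.88 against 1.16, 0.599 and 1.22 CPM (-1.79, SE 0.59; adjusted p = 0.347 in edgeR). Control mouse 42 carried much of the latter, which was at -0.96 without it. In both genes every knockout mouse lay under every control mouse.

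Of the genes that relay the signal inside the cell, the adaptor list and the death branch were centred near 0. Of 22 adaptors, ubiquitin ligases and the TNF-shedding protease, 21 were tested, 10 negative and 11 positive, with a median of 0.05 that was -0.10 with library totals as the only scaling, a setting that moved the median of all genes to -0.17. It was also slightly negative without mouse 83 (-0.01) or mouse 90 (-0.03). Genotypes of the adaptor list did not overlap in 3 lower and 2 higher genes, against 7.94% and 8.96% of all genes. Tnip1, a partner of A20, had 26.1, 39.1 and 31.7 against 25.8, 21.0 and 25.3 CPM (log2 fold change -0.43, SE 0.20), and Traf6, a ubiquitin ligase shared with interleukin 1 signalling, 29.2, 22.6 and 18.6 against 33.5, 29.0 and 31.5 CPM (0.42, SE 0.20). Tnip1 was at -0.27 without control mouse 83, and Traf6 at 0.24 without control mouse 90 and 0.26 with library totals. The death branch had 5 negative and 3 positive fold changes (8 genes, median -0.03). Its 2 named genes stood apart from that centre in opposite directions.

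Mlkl, the pore-forming effector of necroptosis, had 11.2, 16.9 and 20.8 CPM in control mice 42, 83 and 90 and 7.21, 8.16 and 9.22 CPM in knockout mice 49, 82 and 88 (log2 fold change -0.99, SE 0.27; adjusted p = 0.313 in edgeR). Cflar, the gene of cFLIP, which blocks caspase 8, had 137, 106 and 71.3 against 189, 138 and 138 CPM (0.57, SE 0.26; adjusted p = 0.460 in edgeR), and was at 0.32 without control mouse 90. Neither gene had overlapping genotypes, and for Cflar the gap between control mouse 42 (136.6) and knockout mouse 82 (137.6) was about 1 CPM.

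Among NF-kB subunits, inhibitors and kinases (14 tested), 11 fold changes were negative and 3 positive, with a median of -0.23. Relb, the subunit of the non-canonical branch below Ltbr and Fn14, had 9.59, 21.2 and 16.1 CPM in control mice 42, 83 and 90 and 6.69, 7.57 and 9.36 CPM in knockout mice 49, 82 and 88 (log2 fold change -0.99, SE 0.31; adjusted p = 0.336 in edgeR). Nfkbie, an inhibitor of the family of Nfkbia, had 7.46, 12.2 and 8.66 against 5.79, 5.32 and 6.34 CPM (-0.70, SE 0.26; adjusted p = 0.396 in edgeR). Genotypes did not overlap in either, and mouse 83 was highest in both, as it was in Ltb. Nfkb2, the partner of Relb, was picked out after its values were seen, with a log2 fold change of -0.53 (SE 0.22). The canonical subunits Nfkb1 and Rela were at -0.22 (SE 0.15) and -0.11 (SE 0.19), and the genotypes did not overlap in Nfkb2 and Nfkb1. Genotypes of this list did not overlap in 4 lower and 2 higher genes, against 7.94% and 8.96% of all genes. The 2 higher genes were the kinases Ikbkb (0.37, SE 0.15) and Chuk (0.39, SE 0.19), also picked out after their values were seen.

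Of 23 genes that respond to TNF and NF-kB, 16 were tested. Fold changes were negative in 14, against 52.7% of all genes. In 6 the genotypes did not overlap, all lower in knockout livers, against 7.94% of all genes. Nothing is read from these shares. EdgeR and limma-voom called 0 of them and DESeq2 called Ccl2. The list had a median of -0.73 that was -0.43 without control mouse 90. Ccl2, the monocyte chemokine, had 2.53, 8.78 and 5.72 CPM in control mice 42, 83 and 90 and 1.48, 0.899 and 1.51 CPM in knockout mice 49, 82 and 88 (log2 fold change -2.12, SE 0.49). Its adjusted p was 0.267 in edgeR and 0.00833 in DESeq2. Ier3, an early response gene, had 6.73, 10.3 and 7.27 against 4.18, 2.70 and 4.54 CPM (-1.09, SE 0.31; adjusted p = 0.323 in edgeR). The list was not uniform, since Sod2, the mitochondrial superoxide dismutase, and Saa3, an acute phase protein, had positive fold changes (0.25 and 0.18).

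Of 9 genes of lymphoid tissue and of the lymphotoxin beta receptor programme, 4 were tested (median -0.71). Ccr7, the chemokine receptor that guides lymphocytes and dendritic cells to lymphoid tissue, had 1.53, 2.54 and 2.29 CPM against 0.644, 0.599 and 0.864 CPM (log2 fold change -1.59, SE 0.42; adjusted p = 0.311 in edgeR), and every knockout mouse lay under every control mouse. Ccl19, Ccl21a and Glycam1, which mark organised lymphoid tissue, had no count in any mouse. They were among 7 of the 113 pathway genes without counts, as was the adaptor Traf5, and whether such zeros reflect absence was not tested. Cxcl13 had 0.067, 9.95 and 2.13 CPM in control mice 42, 83 and 90 against 3.15, 2.40 and 2.81 CPM in knockout mice 49, 82 and 88. Madcam1 had 7 counts in control mouse 83 and none in any other mouse. The list median was -0.46 without control mouse 83.

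**Figure D4:**
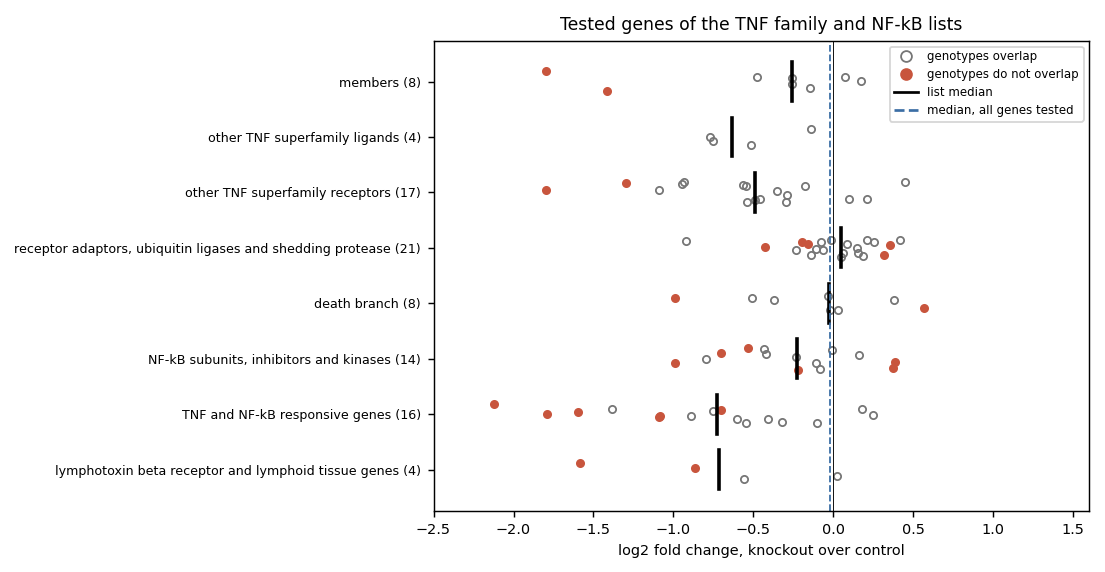
Log2 fold change of each tested gene of the members and the 7 pathway lists (points, number tested in brackets), with genes whose genotypes do not overlap filled in red, the list median as a black bar and the median of all genes dashed. Ligands, other receptors and responsive genes have medians between -0.73 and -0.49, and the adaptor and death lists have medians of 0.05 and -0.03.

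Markers of other cell types of the liver also differed between the mice. Beside Ltb, of 8 B and plasma cell genes all 8 had negative fold changes (median -1.25), though Jchain (-0.016) and Mzb1 (-0.068) were close to 0. In 6 of the 8 the genotypes did not overlap, with knockout mice lower, which was so for 7.94% of all genes. The summed level of these genes nevertheless overlapped (21.99 to 54.2 CPM in control and 16.9 to 42.8 CPM in knockout mice), Jchain of plasma cells being the largest part. The T and NK cell markers were also all negative (7 tested, median -1.01), with sums of 3.86 to 30.7 CPM against 9.14 to 9.94 CPM, so control mouse 42 lay under every knockout mouse. In Ltb that mouse lay above them all.

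Neutrophil markers summed to 17.6 to 83.6 CPM in control and 11.6 to 17.3 CPM in knockout mice (4 tested, all negative, median -1.90). Macrophage markers had sums of 230 to 515 against 358 to 439 CPM and a median of 0.13 (11 tested, 5 negative). Beside Tnfrsf12a, cholangiocyte markers summed to 552 to 1347 CPM in control and 306 to 777 CPM in knockout mice (8 tested, 7 negative, median -0.76), Spp1 being the largest part. Mouse 49 had the lowest cholangiocyte sum of all 6 mice and the highest Tnfrsf12a of the knockouts. Stellate cell markers summed to 568 to 704 against 262 to 441 CPM (10 tested, 9 negative, median -0.74), again with mouse 49 lowest. Endothelial markers had a median of -0.03 (8 tested, 4 negative) with sums of 316 to 465 against 251 to 407 CPM. Hepatocyte markers had a median of 0.37 (8 tested, 3 negative), with sums of 66153 to 103181 against 79774 to 94265 CPM, and Alb was the largest part of them. Genotypes did not overlap in 5 stellate, 2 neutrophil, 1 macrophage, 1 cholangiocyte and 1 endothelial gene, all lower in knockout livers. In 2 hepatocyte genes, both higher, they did not overlap either, while the tested T and NK cell genes all overlapped. Of all genes, 7.94% were lower and 8.96% higher without overlap. Nothing is read from these shares either, since the marker lists were also chosen with earlier results known. No marker in these lists was without counts in all 6 mice, and the part of these cell types in the differences of Ltb and Tnfrsf12a was not tested.

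**Figure D5:**
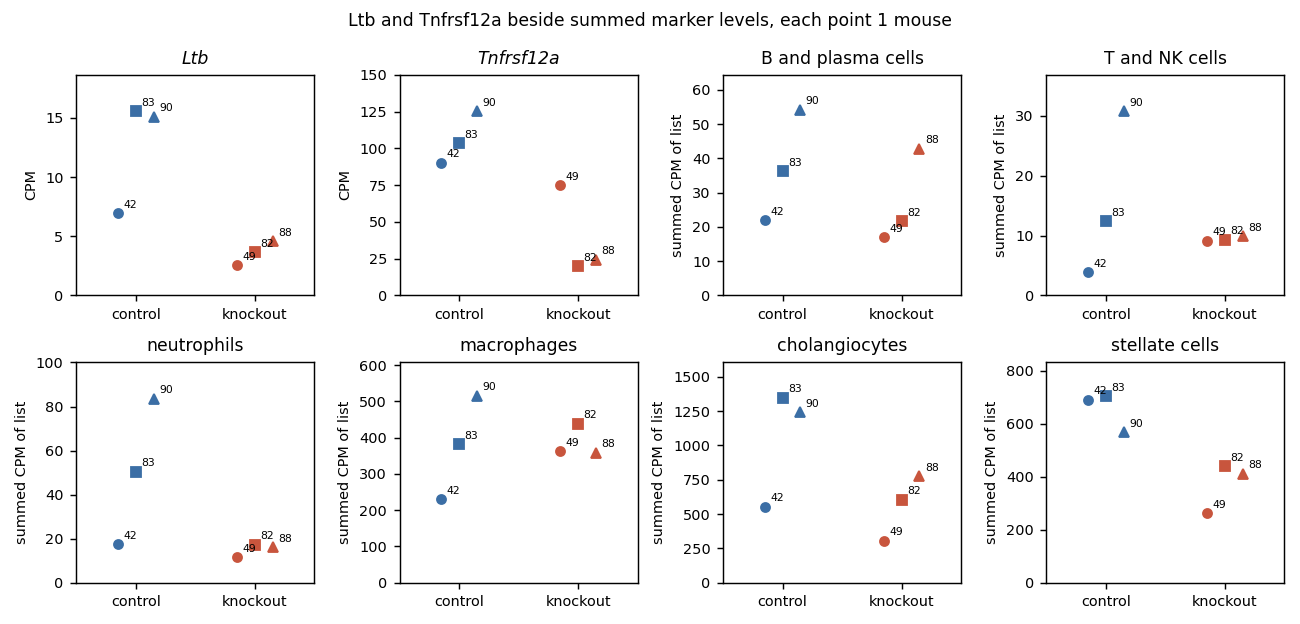
Ltb and Tnfrsf12a (CPM) beside the summed CPM of 6 marker lists, each point 1 mouse with its number, control in blue and knockout in red. Knockout mouse 49 is lowest in the cholangiocyte (306) and stellate (262) sums but highest of the knockouts in Tnfrsf12a (75.1 CPM).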

How the data were processed

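Per the labels, TRIzol was used to isolate total RNA and an NEBNext Ultra kit to make the libraries. The authors deposited raw counts per gene symbol for the 6 mice. Per the submitters' processing notes, the tools were Trimmomatic, FastQC, STAR and HTSeq and the build mm10. For annotation and strand setting nothing is given in the sources used here.

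Counts were filtered with filterByExpr (13153 of 21983 genes kept), scaled by TMM, and fitted in R 4.3.3 with edgeR 4.0.16. A single fit of the 6 mice with a genotype term gave the quasi-likelihood F test, with p-values adjusted over all genes tested (Benjamini-Hochberg, 0.05). The test was also run on simulated data, in which all genes had the same spread and mice of a group differed only in library size. Those data lack the differences between single mice seen here, so no support is drawn from that run. Standard errors come from the fold change and F. CPM uses TMM-scaled totals, and exon lengths come from GENCODE M21. Ratios of pooled counts carry exact binomial intervals.

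The members and all lists were chosen with earlier results of these data known. Named are the members, Prmt1 and the 2 genes of smallest p of each pathway list; 1 gene the rule takes is not reported here. Nfkb2, Nfkb1, Rela, Ikbkb, Chuk, Sod2, Saa3, Cxcl13, Madcam1, Spp1, Jchain, Mzb1, Ccr2, Marco and Alb were named after their values were seen. So were the pathway genes without counts. Alternatives were RLE factors, library totals, no filter, 1 CPM in 3 mice, DESeq2 1.42.0, limma-voom (limma 3.58.1) and leaving out each mouse; a fit of mice 82, 83, 88 and 90 only was chosen after seeing the data. The labels describe separate mice.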

Additional observations from a re-analysis of the deposited data

How the results depend on the processing

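No paired analysis was possible because the mouse numbers are not shared between genotypes. The number of members past an adjusted p of 0.05 was 0 in edgeR and 1 (Ltb) in DESeq2, and 0 to 1 with each mouse left out, the 1 being Tnfrsf12a without knockout mouse 49. Over all genes the count was 0 in edgeR, 4 (all lower) without the low-count filter, 248 in DESeq2 (126 lower, 122 higher) and 0 to 13 with each mouse left out, the 13 again without knockout mouse 49. Among the other pathway genes it was 0 in edgeR and 1 (Ccl2) in DESeq2. The cause of these differences between tools was not tested. Ltb, Tnfsf12, Tnfrsf1a, Tnfrsf12a and Nfkbia stayed negative in all 13 alternatives. Signs turned in 4 cases: Tnfrsf1b (-0.0064 with library totals and -0.043 without knockout mouse 82, in a range of -0.043 to 0.37 with each mouse left out), Ltbr (-0.071 with library totals) and Tnfaip3 (0.096 without control mouse 83, in a range of -0.52 to 0.096). The adjusted p of Ltb ranged from 0.00227 to 0.839 and that of Tnfrsf12a from 0.0309 to 0.839 over the alternatives. Library totals moved the median of all genes from -0.02 to -0.17 and that of the members from -0.26 to -0.42. With 2 to 28 counts per mouse, Tnf was not tested by edgeR under the filter used (adjusted p of 0.380 in DESeq2), and Lta had at most 3 counts in any mouse.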
